A study of Mus musculus with 4 samples.

Results

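The cells described here are medulloblastoma cells with the highest levels of 9 transcripts of G2 and mitosis. In the library of each mouse, barcodes were kept that held at least 500 detected genes, at least 1000 UMIs (unique molecular identifiers, one per captured transcript) and at most 10% mitochondrial UMIs. Barcodes with 3 or more UMIs summed over Lhfpl3, Olig1, Aqp4, Aldoc, Slc25a18, Tyrobp and C1qb, which mark glia and myeloid cells, were left out. Each remaining cell was scored by its summed UMIs per 10000 of Cdc20, Ccnb1, Plk1, Hmmr, Ube2c, Aspm, Cenpf, Cenpa and Cenpe, and the top 10% in each mouse were taken as G2 and mitosis cells. They number 327 of 3266 eligible cells, out of 5670 barcodes in all. The 4 mice gave 111, 65, 61 and 90 of them.

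The study profiled tumours of 4 littermate mice at postnatal day 20, all Atoh1-cre:SmoM2, with 1 droplet library of the 3′ ends of transcripts per mouse. Cre under Atoh1 acts in the precursors of cerebellar granule neurons, where it switches on SmoM2, an always active Smoothened, and tumours of the Sonic hedgehog (SHH) type arise. The mice share this genotype and there is no control group, so classes of cells were compared within each mouse. Cells that excluded the dye 7-AAD were sorted before loading, so cells that died in preparation are missing, and the library of mouse 1 alone was sequenced again for more depth. The libraries held between 1679285 and 3801197 UMIs. Among the barcodes, 20 sequences occurred in more than 1 library, and none of them was a G2 and mitosis cell in 2 libraries. Gene groups below are lists of known function, and levels are UMIs per 10000 UMIs of the summed cells of a class in a mouse.

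In G2 a cell that has copied its DNA builds up cyclin B with the kinase Cdk1, whose activation starts mitosis. Kinetochores then join chromosomes to the spindle, and the checkpoint holds back Cdc20 until all are attached. Cdc20 with the anaphase-promoting complex (APC/C) has securin and cyclin B degraded, and the cell divides by cytokinesis. Granule neuron precursors divide in response to SHH, and in tumours of this type that division persists.

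The score set the class apart by construction, so its 9 genes are given as a description. Cdc20, the activator of the APC/C, stood at 11.0, 11.3, 9.28 and 11.5 UMIs per 10000 in the G2 and mitosis cells of mice 1 to 4 and at 0.813, 0.879, 0.751 and 1.20 in the other 2939 eligible cells. Ccnb1, cyclin B1, stood at 8.99, 9.47, 9.63 and 9.99 against 0.744, 0.797, 0.751 and 1.06. The mice lay close together within each class and the classes far apart. Means over mice in the chosen cells ran from 1.81 ± 0.42 for Aspm, a spindle pole protein, to 15.6 ± 1.73 for Cenpf, a kinetochore protein (SD, n = 4). Between these lay the kinase Plk1 (2.64), the hyaluronan receptor and spindle protein Hmmr (3.47), the kinetochore motor Cenpe (5.33), the centromeric histone Cenpa (14.1) and the APC/C's ubiquitin-conjugating enzyme Ube2c (14.1).

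The limit was not a natural gap. The lowest chosen cell of each mouse scored 39.2, 46.7, 43.3 and 49.5 UMIs per 10000, and the highest cell left out scored 38.8, 46.2, 42.2 and 48.5. At the top, scores reached 155 to 173. The median chosen cell held UMIs of 7 of the 9 genes, 286 of 327 held at least 5, and 49 held all 9. Among the other cells, 187 of 2939 held at least 5 and 3 held all 9, so cells with part of the programme remain outside the limit. Chosen cells held as few as 4 UMIs of the 9 genes.

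To read the markers apart from their own use, the cells were chosen 9 more times, each time by 8 of the 9 genes, and the left-out gene was measured. All 9 were higher in the chosen cells of 4 of 4 mice, by 2.77 ± 0.07 log2 units (SE) for Cenpa to 3.46 ± 0.15 for Plk1. Plk1 averaged 2.57 ± 0.34 UMIs per 10000 in cells chosen without it and 0.231 ± 0.06 in the rest (SD, n = 4). Each marker was higher when it had no part in the choice, so the 9 transcripts vary together between cells. The 9 genes were chosen as a set with earlier results of these data known. The held-out values are therefore no independent support for the label of G2 and mitosis. The score sums genes of G2 and of mitosis, and the stages were not separated.

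Markers of other cell types were low in the class. For glia and myeloid cells this was partly set by the rule, which left out cells with 3 or more UMIs of the exclusion genes. That limit is a UMI count, so it falls at a lower share of UMIs in deeper cells, and the chosen cells were deeper. Its part in the differences was not tested. The exclusion genes are not in the sums. Sums in this paragraph are means over cells of each cell's UMIs per 10000, unless summed cells are named. Astroglial markers summed to 5.01 ± 1.53 UMIs per 10000 in G2 and mitosis cells (2.83 to 6.42) and 8.35 ± 1.72 in other cells (6.03 to 10.2), and were lower in 4 of 4 mice (exact sign-flip p = 0.13, the smallest that 4 mice allow). Oligodendrocyte markers summed to 1.98 and 2.74. Myeloid markers summed to 0.0968 and 0.0542, vascular markers to 0.0945 and 0.0845, and choroid plexus and ependymal markers to 0.0266 and 2.62. The last were at 0 in the chosen cells of mice 1 to 3, and in other cells stood at 2.87 in mouse 1 and 7.52 in mouse 4. The part of such cells among the others in the differences below was not tested. Erythroid markers were at 0 in the chosen cells and at 0.0025 in the others. The granule lineage lists were well detected, at 56.8 ± 6.1 for progenitor genes and 38.5 ± 1.22 for neuronal differentiation genes. In the summed cells both lists had lower means than in other cells. Progenitor genes stood at 58.5 against 62.8 and neuronal differentiation genes at 38.4 against 41.3. In the summed S-phase cells, described at the end, these lists stood at 57.8 and 35.3.

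The chosen cells were also the deeper ones. Their median UMI count was 2650, 3995, 2774 and 4306.5 in mice 1 to 4, against 2223, 2810, 1769 and 3040 in other cells, higher in 4 of 4 mice (exact sign-flip p = 0.13). Detected genes per cell had medians of 1462 to 2015.5 and 1052 to 1576. The mitochondrial share of UMIs, which the rule limited to 10% in both classes, was lower in 4 of 4 mice, with mean medians of 2.70% and 3.12%. No doublet caller was run, and a doublet would hold more UMIs. With the deepest 10% of cells left out, a step added after the data were seen, 409 genes were higher and 334 lower. With only cells of at least 2000 UMIs, 455 were higher and 374 lower.

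Against the other cells, 553 of 7130 tested genes were higher in G2 and mitosis cells (7.76%) and 490 were lower (6.87%), by edgeR with the mouse as a block and an adjusted p under 0.05. Those shares are the background for every group of genes that follows. DESeq2 called 333 higher and 161 lower, so that 67.4% of its calls were higher. Without the block 295 were higher and 104 lower, a share of 73.9%. On cells thinned to 1000 UMIs, 251 were higher and 167 lower, and without mouse 2 the lower genes numbered 314. The median log2 fold change of all genes was -0.02.

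Genes of entry into mitosis were mostly higher. Of 27 tested, 21 were higher and none lower in edgeR, with a median difference of 2.00 log2 units, and for 20 of them the levels of the 4 mice did not overlap between the classes, against 6.27% of all genes higher and 6.04% lower in that way. The 6 that did not pass ran from -0.74 for Mybl2 to 0.70 for Lin54. Mki67, the proliferation marker Ki-67 that coats mitotic chromosomes, stood at 5.29, 6.76, 5.97 and 6.28 UMIs per 10000 in G2 and mitosis cells and 1.41, 1.38, 1.63 and 1.73 in other cells. The classes did not overlap, and the difference was 2.00 ± 0.09 log2 units (SE, edgeR adjusted p = 6.1e-38). Ccnb2, cyclin B2, stood at 5.08, 5.84, 2.84 and 3.76 against 0.723, 0.780, 0.510 and 0.810, a difference of 2.63 ± 0.11. Mouse 3 was lowest in both classes. Cdk1, its kinase partner, was higher by 1.87 ± 0.09, and Ccna2, cyclin A2 of S phase and G2, by 2.23 ± 0.10. The largest differences in the group were those of Bora, which helps Aurora A to activate Plk1 (3.27 ± 0.22), Cdc25c, the phosphatase that activates Cdk1 (3.23 ± 0.18), and Fam64a, a regulator of the metaphase to anaphase step (3.13 ± 0.13).

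Top2a, the topoisomerase that untangles sister chromatids, stood at 7.08, 10.2, 8.41 and 8.99 UMIs per 10000 in G2 and mitosis cells and 2.74, 2.91, 2.81 and 3.62 in other cells. The classes did not overlap, and the difference was 1.52 ± 0.07 log2 units. Against S-phase cells, described at the end, its levels did overlap.

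**Figure D1:**
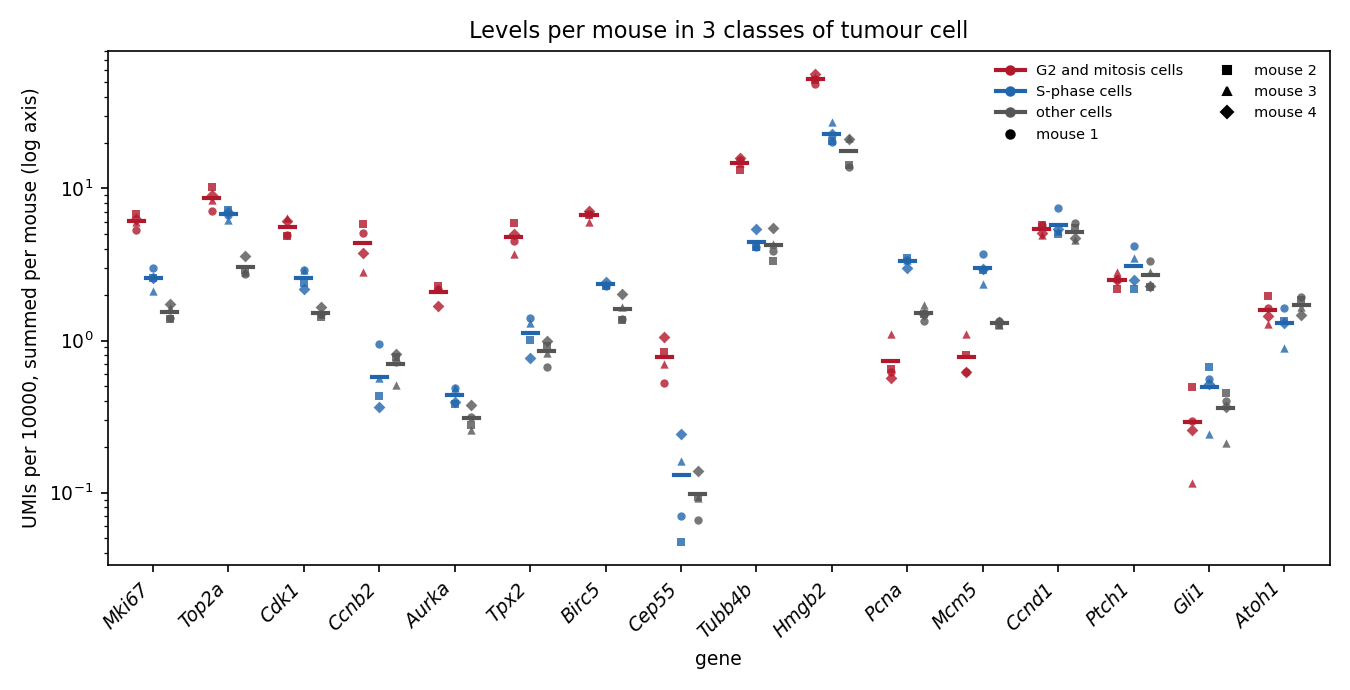
Levels of 16 genes in UMIs per 10000 (log axis) in G2 and mitosis cells, S-phase cells (an equal number of the rest, highest by S-phase genes) and other cells. Each symbol is 1 of 4 mice and each bar their mean. Mki67, Ccnb2 and Hmgb2 lie apart in G2 and mitosis cells, Top2a lies near its level in S-phase cells, and Ccnd1, Ptch1, Gli1 and Atoh1 overlap between the classes.

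Shares of cells with at least 1 UMI gave the same order at a coarser scale. A UMI of Mki67 was found in 66.7% ± 5.81 of G2 and mitosis cells and 21.6% ± 4.01 of other cells (SD, n = 4). After thinning to 1000 UMIs the shares were 39.5% and 10.8%. Top2a was found in 67.6% and 30.7%, and after thinning in 44.2% and 18.8%. In 29 cells with 3 or more UMIs of the myeloid genes Tyrobp and C1qb, which should lack mitotic transcripts unless dividing, 4 cells (13.8%) held a UMI of Top2a and 0 of 29 a UMI of Mki67, which allows a share of up to 10.3%. Those cells had a median of 1521 UMIs, against 3048 in G2 and mitosis cells and 2293 in others taken over all mice.

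Over bands of the score, most mitotic levels fell. Cells were placed in bands by score within each mouse. Mki67 averaged 6.91 ± 1.14 UMIs per 10000 in the top 5%, 5.12 ± 1.03 in the next 5%, 4.01 ± 0.44 from 10 to 20%, 2.00 ± 0.47 from 20 to 50% and 0.707 ± 0.17 in the lower 50% (SD, n = 4). In mouse 3 the next 5% exceeded the top 5%. Ccnb2 averaged 4.49 ± 1.15 and 4.29 ± 1.64 in the upper pair of bands, which did not differ beyond the spread between mice, and 2.28 ± 0.69 in the band just outside the class. In mouse 2 it was 5.40 in the top 5% and 6.36 in the next 5%. The S-phase list summed to 35.8 in the top 5%, 41.6 in the next 5%, 49.8 from 10 to 20%, 56.2 from 20 to 50% and 49.3 in the lower 50%. S-phase transcripts were thus highest in cells with a middling score. Ccnd1 and Gli1 showed no such order over the bands.

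**Figure D2:**
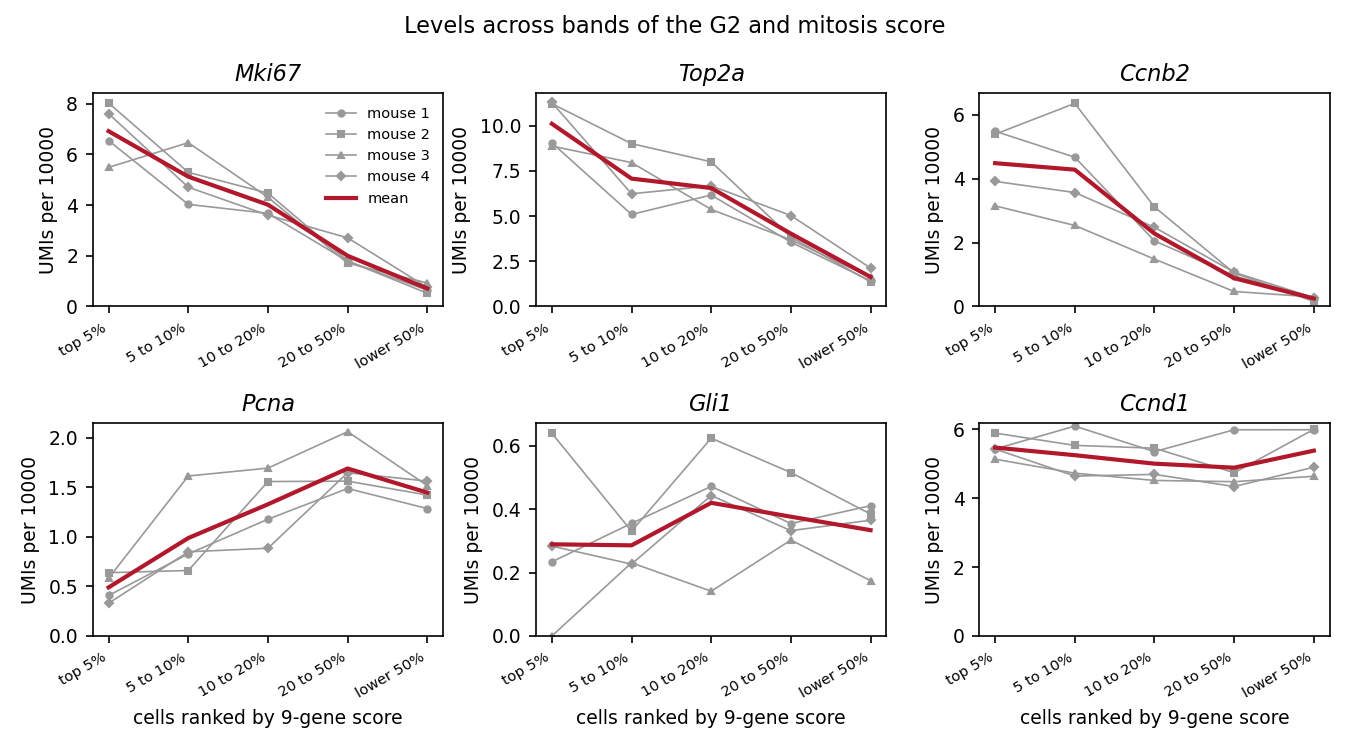
Levels of 6 genes in UMIs per 10000 (linear axes from 0) in 5 bands of cells ranked by the 9-gene score in each mouse; the class described here is the upper pair of bands. Grey lines are the 4 mice and the red line their mean. Mki67 falls from 6.91 to 0.707 over the bands, Pcna is lowest in the top 5% at 0.490, and Ccnd1 stays between 4.89 and 5.47.

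Kinetochore and checkpoint genes were higher in 30 of 39 tested, with none lower and a median of 1.53 log2 units. Sgol2a, a shugoshin that protects centromeric cohesin, stood at 2.20, 2.41, 2.38 and 2.58 UMIs per 10000 in G2 and mitosis cells and 0.312, 0.256, 0.278 and 0.422 in other cells. The mice were close to each other within each class, and the difference was 2.88 ± 0.14 (edgeR adjusted p = 3.4e-34). Bub1b, the checkpoint protein BubR1, was higher by 2.51 ± 0.16, and Cenpl of the inner kinetochore by 2.68 ± 0.22. In the chromosomal passenger complex, Birc5 (survivin) was higher by 2.09 ± 0.09 and its kinase Aurkb by 1.78 ± 0.13. Among the 9 that did not pass were the inner kinetochore genes Cenph at 0.09 and Cenpu at 0.04.

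Of 33 genes of the spindle and its motors, 23 were higher and none lower, with a median of 2.32 log2 units. Fam83d, which brings casein kinase 1 to the spindle, had the largest difference of the group, 4.29 ± 0.34, at low levels of 0.464 to 0.870 UMIs per 10000 in G2 and mitosis cells and 0.0185 to 0.0452 in others. Kif2c, the microtubule-depolymerising motor MCAK, stood at 2.18, 2.29, 1.22 and 2.21 against 0.210, 0.180, 0.102 and 0.257, a difference of 3.37 ± 0.16. Kif14, a motor of the late spindle and midbody, was higher by 3.13 ± 0.35. Aurka, the kinase of spindle poles, was higher by 2.70 ± 0.15, and its activator Tpx2 by 2.53 ± 0.10. Among the genes of augmin, which branches microtubules within the spindle, Haus3 was higher by 1.10 ± 0.22, while Haus1, Haus2, Haus4, Haus5, Haus6, Haus7 and Haus8 did not pass, from -0.39 for Haus7 to 0.42 for Haus4. At an unadjusted p under 0.05 none of the spindle or kinetochore genes was lower, and DESeq2 called 22 and 29 of them higher and none lower.

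Cytokinesis genes were higher in 12 of 15 and lower in 1, the septin gene Sept9, by 0.85 in 3 of 4 mice. That call was lost in 12 of 16 alternatives, among them without mouse 1 (-0.81), mouse 2 (-0.76) or mouse 4 (-0.63). Arhgef39 was higher by 3.76 ± 0.38 and the central spindle motor Kif20a by 2.75 ± 0.17. Cep55, which recruits the abscission machinery to the midbody, stood at 0.529, 0.840, 0.696 and 1.06 UMIs per 10000 against 0.0657, 0.0931, 0.0927 and 0.138, a difference of 3.00 ± 0.24 without overlap. The machinery that Cep55 recruits did not follow at the transcript level. Of 19 tested genes of the ESCRT complexes and their partners, which cut membranes in abscission and in vesicle budding, only Vps36 of ESCRT-II passed, higher by 0.85 ± 0.13, and the median was -0.09. Chmp4b, the main ESCRT-III filament subunit, stood at 0.323, 0.305, 0.522 and 0.592 against 0.472, 0.529, 0.640 and 0.626, a difference of -0.34 ± 0.21 that did not pass. No UMI of Chmp4c, which times abscission, was found in 327 cells, which allows up to 0.917% of cells with a UMI. It was near 0 in other cells too, with a UMI in a mean of 0.0561% of them, so no difference could be read.

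Of 20 condensin and cohesin genes, which compact and hold sister chromatids, 11 were higher and none lower. The condensin subunits Ncapg and Smc4 were higher by 1.85 ± 0.18 and 1.74 ± 0.08 log2 units, and the cohesin subunit Rad21 by 1.60 ± 0.11. Of 22 genes of the APC/C and related ligases, 6 were higher and none lower, and the median was 0.15. These were Fzr1, the late mitotic activator Cdh1 (1.75 ± 0.16), the chain-elongating enzyme Ube2s (1.43 ± 0.06), the core subunits Cdc27 (1.35 ± 0.27), Cdc23 (0.65 ± 0.18) and Anapc15 (0.64 ± 0.20), and the inhibitor Fbxo5 (1.34 ± 0.15). Cdc23 lost its call in 7 of 16 alternatives, including without mouse 1 (0.51) or mouse 2 (0.58). Anapc15 lost it in 11 of 16, including without mouse 2 (0.57), mouse 3 (0.52) or mouse 4 (0.70). Most core subunits of the complex, among them Anapc1 at -0.10 and Anapc4 at 0.14, did not pass.

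Nuclear envelope genes were higher in 7 of 19 and lower in 2. Nup37, a subunit of the nuclear pore that also binds kinetochores, was higher by 1.61 ± 0.16, the lamina protein Tmpo by 1.27 ± 0.07 and lamin B1 (Lmnb1) by 1.24 ± 0.12. Ranbp1, which acts in the Ran cycle, was lower by 0.27 ± 0.06, a call lost in 3 of 16 alternatives. Lmna, lamin A, was lower by 1.52 ± 0.52 at levels of 0.0294 to 0.116 UMIs per 10000, and lost its call in 5 of 10, including without mouse 1 (-1.22), mouse 2 (-1.41) or mouse 4 (-1.56). Among 16 genes of high mobility group (HMG) proteins and histone variants, 12 were higher and 1 lower. Hmgb2, an abundant HMG protein, stood at 48.8, 51.5, 54.3 and 56.5 UMIs per 10000 against 13.7, 14.3, 21.5 and 21.1, with the same order of mice 1 and 2 below mice 3 and 4 in both classes. Its difference was 1.63 ± 0.05, and that of the variant histone gene H2afx was 1.85 ± 0.07. Of 23 centriole and cilium genes, 6 were higher and none lower, and without mouse 4 there were 3 higher. Cdk5rap2, of the pericentriolar material, was higher by 1.27 ± 0.18 and Cenpj, which sets centriole length, by 1.03 ± 0.28, the latter lost in 5 of 15 alternatives, including without mouse 4 (0.85).

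**Figure D3:**
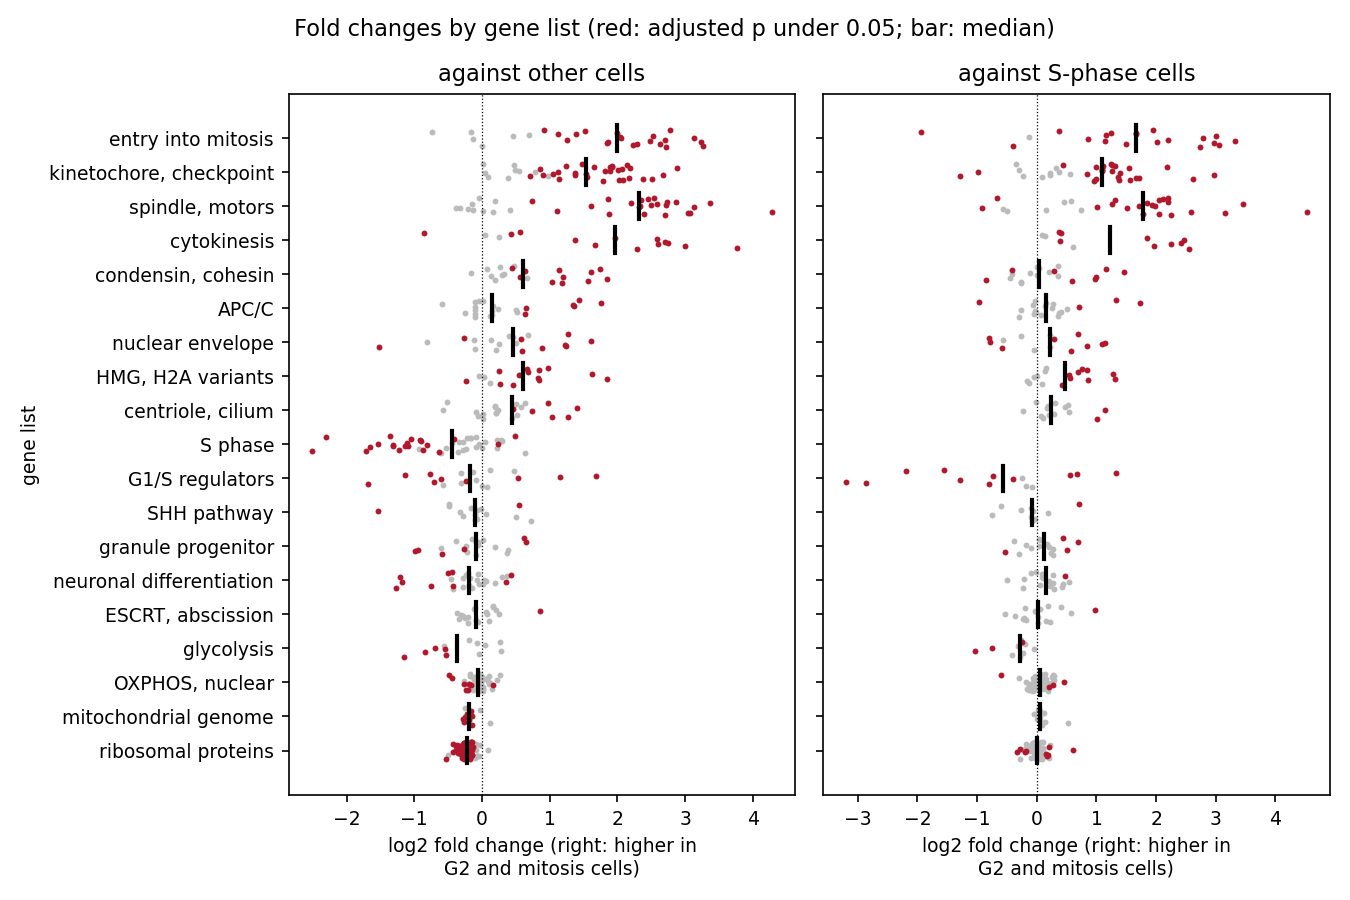
Log2 fold changes of tested genes in 19 lists, G2 and mitosis cells against other cells (left) and against S-phase cells (right, where the S-phase list is left out because it chose the cells). Each point is a gene, red where the adjusted p is under 0.05, and each bar a list's median. Medians of the mitotic lists reach 2.32 on the left, and ribosomal protein genes lie below 0 on the left (median -0.22) and near 0 on the right.

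Because so many of these genes were higher together, their promoters were read for motifs known from cell cycle genes. The motifs were the CHR, a binding element of the MuvB complexes (TTTGAA or TTCGAA), the CCAAT box bound by NF-Y (CCAAT), and a form of the E2F site (TTTCCCGC or TTTGGCGC), each on both strands in the 250 bases before the RefSeq start. Of 213 genes higher by more than 1 log2 unit, 172 were matched to 204 promoters of RefSeq (GRCm38.p6). A CHR was found in 34.8% of them, in 12.6% of the promoters of all tested genes and in 17.1% of all 32851 promoters. A CCAAT box was found in 63.2%, 36.1% and 33.8%. Both were found in 27.5%, 4.79% and 6.02%, and the E2F form in 3.92%, 2.84% and 1.30%. A match describes letters and is not evidence of binding. Fewer than 80% of the lower genes were matched (387 of 490), so no share is given for them. The same limit held for the S-phase list, with 32 of 44 genes matched. Of the 36 promoters of that list, 25 held a CCAAT box, 7 a CHR and 5 both. The CCAAT box was thus not particular to genes higher in the class.

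The 6 stretches below run from 150 bases before the start to the base before it, 5′ to 3′ on the strand of the gene, with each motif match in capitals on either strand. Ccnb2, Top2a and Mki67 are shown as genes higher in the class that differ in motif content, and Hmmr and Cenpf as genes of the score. Birc5 is shown as a gene of the same behaviour without a match in its stretch. Bases after the start were not read, so a motif there would be missed for any of the genes. The Ccnb2 stretch holds 3 CCAAT boxes, and that of Top2a 3 CHR and 4 CCAAT matches. The Mki67 stretch holds 2 CHR and 1 CCAAT match. Hmmr holds 4 CCAAT boxes and Cenpf 2, with no CHR in either.
Ccnb2, chr9:70421555-70421704, minus strand: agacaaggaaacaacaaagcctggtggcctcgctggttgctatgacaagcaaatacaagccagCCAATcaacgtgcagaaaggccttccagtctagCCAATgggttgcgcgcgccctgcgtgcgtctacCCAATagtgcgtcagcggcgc
Top2a, chr11:99024190-99024339, minus strand: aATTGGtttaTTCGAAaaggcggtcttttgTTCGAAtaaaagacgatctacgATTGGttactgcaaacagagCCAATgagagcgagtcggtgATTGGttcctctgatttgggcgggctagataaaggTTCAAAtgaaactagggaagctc
Mki67, chr7:135716380-135716529, minus strand: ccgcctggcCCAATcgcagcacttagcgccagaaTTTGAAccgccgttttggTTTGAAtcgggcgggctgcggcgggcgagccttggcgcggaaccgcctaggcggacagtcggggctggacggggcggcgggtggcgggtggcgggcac
Hmmr, chr11:40733438-40733587, minus strand: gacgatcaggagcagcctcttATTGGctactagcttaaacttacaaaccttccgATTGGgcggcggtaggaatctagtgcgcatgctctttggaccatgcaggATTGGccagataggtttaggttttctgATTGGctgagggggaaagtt
Cenpf, chr1:189688087-189688236, minus strand: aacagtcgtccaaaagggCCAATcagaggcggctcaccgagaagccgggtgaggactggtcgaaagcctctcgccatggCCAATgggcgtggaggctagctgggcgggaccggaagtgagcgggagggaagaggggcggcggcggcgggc
Birc5, chr11:117849087-117849236, plus strand: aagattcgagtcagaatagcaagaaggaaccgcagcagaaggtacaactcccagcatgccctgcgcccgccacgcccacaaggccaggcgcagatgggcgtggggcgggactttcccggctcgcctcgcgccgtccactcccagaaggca

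**Figure D4:**
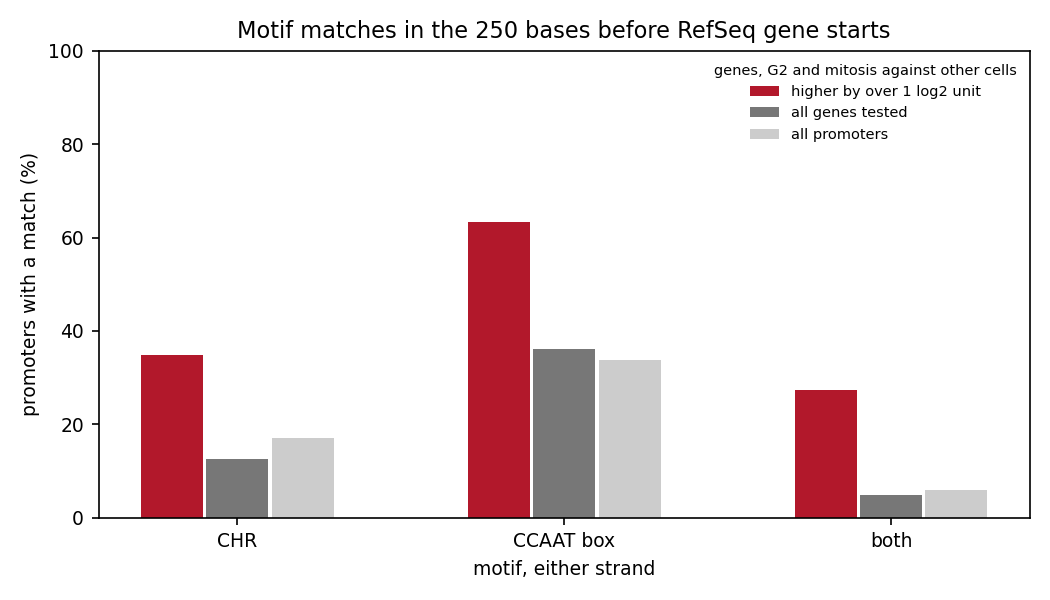
Percent of RefSeq promoters with a CHR, a CCAAT box or both, either strand, in the 250 bases before the start. Bars are the promoters of genes higher in G2 and mitosis cells by more than 1 log2 unit, of all genes tested and of the whole table. The pair of motifs together was found in 27.5%, 4.79% and 6.02%.

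Genes of S phase ran the other way. Of 43 tested, 19 were lower in G2 and mitosis cells and 2 higher, with a median of -0.44 log2 units. Pcna, the sliding clamp of replication, stood at 0.617, 0.649, 1.10 and 0.567 UMIs per 10000 against 1.34, 1.48, 1.72 and 1.50 in other cells. Mouse 3 was highest in both classes, and the classes did not overlap (difference -1.10 ± 0.16, edgeR adjusted p = 2.3e-08). Mcm5 of the replicative helicase was lower by 0.82 ± 0.16. The lowest were Cdc6, which loads that helicase (-2.52 ± 0.48), the uracil glycosylase Ung (-2.30 ± 0.22) and the histone chaperone subunit Chaf1b (-1.71 ± 0.23). The pair that was higher was Usp1, a deubiquitinase of DNA repair (0.49 ± 0.12), and the histone chaperone Nasp (0.24 ± 0.08), whose calls were lost in 2 and 9 of 16 alternatives. Without mouse 2 Usp1 stood at 0.38, and without mouse 1 or 4 Nasp stood at 0.20 or 0.23, all short of the threshold. Only 1 of the 327 cells was also in the top 10% of its mouse by the S-phase list.

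Among 18 regulators of the step from G1 to S, 3 were higher and 6 lower. The 3 that were higher are inhibitors of cyclin-dependent kinases. Cdkn2d, p19Ink4d, stood at 1.70, 1.83, 1.22 and 1.67 UMIs per 10000 against 0.493, 0.448, 0.584 and 0.564, without overlap, a difference of 1.68 ± 0.15. Cdkn2c, p18Ink4c, was higher by 1.16 ± 0.13 and Cdkn1b, p27, by 0.53 ± 0.15, the latter lost in 4 of 16 alternatives. Lower were Ccne2, cyclin E2 (-1.68 ± 0.39), the licensing factor Cdt1 (-1.14 ± 0.23), E2f1 (-0.77 ± 0.22), Cdk2 (-0.71 ± 0.24), Cdk4 (-0.24 ± 0.06) and Cdkn1a. E2f1 lost its call in 5 of 16 alternatives, including without mouse 2 (-0.60). Cdk2 lost it in 10, including without mouse 1 (-0.66), mouse 2 (-0.62) or mouse 3 (-0.68), and Cdk4 in 7, including without mouse 4 (-0.22). Cdkn1a, p21, was lower by 0.61 ± 0.19 with only 2 of 4 mice in that direction, and its call was lost in 8 of 16. In mice 3 and 4 it stood at 1.04 and 0.335 against 2.20 and 1.11, and in mice 1 and 2 at 0.735 and 0.916 against 0.666 and 0.815. Without mouse 3 the difference was -0.44 and without mouse 4 -0.26, and neither passed.

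Transcripts of the SHH pathway differed little. Of 15 tested, 1 was higher and 1 lower, a share near the background of all genes, and the median was -0.11. Gli1, the transcription factor and target of the pathway, stood at 0.294, 0.496, 0.116 and 0.258 UMIs per 10000 against 0.399, 0.454, 0.213 and 0.365, with overlap (difference -0.29 ± 0.26, edgeR adjusted p = 0.54). The receptor gene Ptch1 stood at 2.53, 2.18, 2.84 and 2.50 against 3.36, 2.23, 2.84 and 2.28, a difference of -0.08 ± 0.10. Spop, an adaptor for ubiquitination of Gli proteins, was higher by 0.55 ± 0.11, and Prkaca, the catalytic subunit of protein kinase A that restrains the pathway, was lower by 1.53 ± 0.49, lost in 7 of 12 alternatives, including without mouse 2 (-1.19), mouse 3 (-1.36) or mouse 4 (-1.22). The targets Ccnd1 and Ccnd2, D-type cyclins, differed by 0.07 ± 0.07 and 0.00 ± 0.05, and Mycn by -0.32 ± 0.12 with an edgeR adjusted p of 0.051. Without mouse 1 Mycn passed, at -0.42. With the deepest 10% of cells left out, Ccnd1 passed as lower by 0.27.

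Of 20 granule progenitor genes, 2 were higher and 4 lower, and without mouse 1 or mouse 3 there were 2 lower. Atoh1, the factor that defines the lineage and gives the Cre line its driver, differed by -0.09 ± 0.12. Pax6, a transcription factor of granule cells, stood at 2.79, 3.21, 4.35 and 3.42 UMIs per 10000 against 1.54, 2.19, 2.51 and 2.56, higher by 0.65 ± 0.10 without overlap. Zic5 was higher by 0.62 ± 0.12. Lower were Hey1, a repressor downstream of Notch (-0.94 ± 0.14), Barhl1 (-0.58 ± 0.09), Id2 (-0.27 ± 0.08) and Hes1 (-0.98 ± 0.34). Id2 lost its call in 8 of 16 alternatives, including without mouse 1 (-0.23), mouse 3 (-0.26) or mouse 4 (-0.26), and Hes1 in 6 of 12, including without mouse 2 (-0.68) or mouse 3 (-0.83). Of 27 neuronal differentiation genes, 7 were lower, or 3 without mouse 2 and 4 without mouse 4, and 2, Sox11 and Ncam1, were higher, Sox11 by 0.43 ± 0.07 and Ncam1 by 0.35 ± 0.10. Ncam1 lost its call in 6 of 16 alternatives, including without mouse 4 (0.33). Stmn2, a microtubule regulator of growing axons, stood at 3.32, 4.24, 1.91 and 3.27 against 4.18, 5.22, 2.97 and 5.78, a difference of -0.50 ± 0.09 that was lost in 4 of 16 alternatives. Of the 327 cells, 20 were in the top 10% of their mouse by the neuronal list, a mean share of 6.35%. By the SHH and progenitor lists the mean shares were 5.93% and 5.47%. A share under 10% was thus not particular to the neuronal list. Against S-phase cells, described at the end, 1 of 18 neuronal genes was higher and none lower in edgeR, with a median of 0.16. Of 16 progenitor genes, 3 were higher there and 1 lower, with a median of 0.12. Without mouse 1, 2 were higher and 2 lower, and without mouse 2 or mouse 4, 2 were higher and none lower. Id2, lower against other cells, was among the 3 higher against S-phase cells, at 0.51. The lower neuronal levels were thus particular to the comparison with other cells.

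Among 9 tested tubulins, 6 were higher and 1 lower, and the isotypes differed widely. Tubb4b stood at 15.3, 13.1, 14.7 and 15.9 UMIs per 10000 against 3.90, 3.35, 4.32 and 5.52, a difference of 1.81 ± 0.06. Tuba1c was higher by 2.86 ± 0.25, at levels under 1.2. The abundant neural isotype Tuba1a was higher by 0.11 and Tubb2a lower by 0.47. These lost their calls in 9 and 12 of 16 alternatives, Tuba1a without mouse 1 (0.07), mouse 2 (0.13) or mouse 3 (0.11), and Tubb2a without mouse 1 (-0.53), mouse 2 (-0.50) or mouse 4 (-0.23). Near-identical tubulin copies can share reads, so differences between isotypes carry that limit.

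Ribosomal protein genes were lower as a group. Of 82 tested, 71 were lower and none higher, with a median of -0.22 log2 units. Their summed level per cell was 1453 to 1556 UMIs per 10000 in G2 and mitosis cells and 1763 to 1873 in other cells, without overlap between the ranges of the 4 mice, and it was lower in 4 of 4 mice (exact sign-flip p = 0.13). Rpl38 was lower by 0.42 ± 0.05. The median stayed between -0.27 and -0.16 in 16 alternatives, but without the mouse block only 3 of the 82 passed. Levels here are shares of a cell's UMIs, so a lower share cannot be told apart from a rise in other transcripts. The classes differ in depth, and among cells with at least 2000 UMIs the difference in the summed level was -264 UMIs per 10000, against -298 in all.

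**Figure D5:**
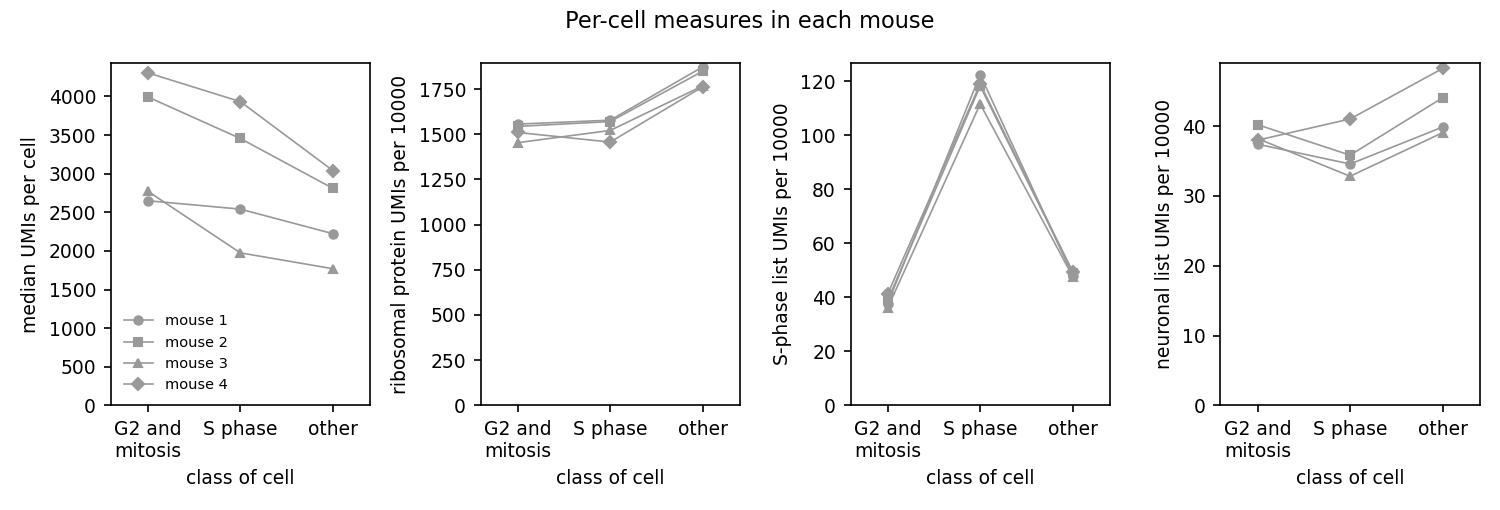
Median UMIs per cell, and mean UMIs per 10000 of ribosomal protein, S-phase and neuronal differentiation genes, in G2 and mitosis cells, S-phase cells and other cells. Each line is 1 of 4 mice and axes start at 0. Ribosomal protein levels of G2 and mitosis cells (1453 to 1556) lie with those of S-phase cells and below those of other cells.

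Of 12 transcripts of the mitochondrial genome, 8 were lower, with a median of -0.19, and mt-Co3 of complex IV was lower by 0.27 ± 0.04. Without the mouse block 1 of 12 passed, and without mouse 2 or mouse 4 there were 5. Nuclear genes of oxidative phosphorylation were lower in 7 and higher in 1 of 58, with a median of -0.06. Counting both directions, the share called was near the 14.6% of all tested genes, though more of the calls were lower. Without mouse 2 or mouse 4 there were 4 or 3 lower. Whether this list differs from the background was not tested. Of 12 glycolysis genes, 5 were lower and none higher. Aldoa, an aldolase, stood at 1.35, 1.07, 1.04 and 1.24 UMIs per 10000 against 2.63, 2.85, 2.38 and 2.81, a difference of -1.15 ± 0.12 without overlap. The isomerase gene Gpi1 was lower by 0.84 ± 0.16 and the lactate dehydrogenase gene Ldhb by 0.69 ± 0.12.

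Among 17 genes of tetraspanins and cargo of extracellular vesicles, 2 were higher and 3 lower. Cd9 was higher by 0.36 ± 0.07 and the prion protein gene Prnp by 0.76 ± 0.19. Cd81 was lower by 0.43 ± 0.07, Hspa8 by 0.27 ± 0.04 and Cd63 by 0.23 ± 0.05, the last lost in 4 of 16 alternatives. The 3 classic tetraspanins of vesicles thus did not share a direction, and Cd9 and Cd81 kept theirs in all 16 alternatives while losing the call in 2 each. Of 12 immediate early genes, Klf6 alone was higher, at 0.794, 1.60, 1.51 and 0.953 against 0.238, 0.233, 0.362 and 0.207 (2.22 ± 0.19), and Btg2, Ier2 and Jun were lower. Jun, at -0.38 ± 0.10, lost its call in 4 of 16 alternatives, including without mouse 1 (-0.17). Of 9 targets of p53, Bbc3 and Cdkn1a were lower, Bbc3 by 1.45 ± 0.41 with the call lost in 5 of 15 alternatives, including without mouse 4 (-1.10). The nuclear RNA Malat1 differed by 0.02 ± 0.04. Of 7 astroglial markers tested outside the exclusion genes, 5 were lower, or 3 without mouse 1: Apoe by 1.05 ± 0.13, Gfap by 1.50 ± 0.30, Slc1a3 by 0.71 ± 0.18, Slc1a2 by 0.55 ± 0.15 and Fabp7 by 0.44 ± 0.15. The limit on exclusion genes given above, which acts at a lower share in deeper cells, bears on these markers too. Without mouse 1 Slc1a3 (-0.57) and Slc1a2 (-0.42) did not pass, nor did Fabp7 without mouse 2 (-0.45), mouse 3 (-0.35) or mouse 4 (-0.25).

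Outside every list, the largest differences at 20 or more UMIs and in 4 of 4 mice were those of Tnfaip8l1 (4.08 ± 0.45), Gas2l3, which links microtubules and actin in late mitosis (3.65 ± 0.17), and the helicase gene Pif1 (3.60 ± 0.25). Gas2l3 stood at 1.68, 2.83, 1.80 and 1.96 UMIs per 10000 against 0.123, 0.122, 0.148 and 0.238. Psrc1, a spindle protein, was higher by 3.03 ± 0.18. At the low end were Chchd10 (-2.18 ± 0.43), a mitochondrial protein gene, Zfp367 (-1.83 ± 0.43) and Gpr180 (-1.81 ± 0.34).

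A closer comparison was with S-phase cells, the remaining cells of each mouse that were highest by 44 S-phase genes. In each mouse as many were taken as there were G2 and mitosis cells, 327 in all. Their median UMI counts of 2541, 3456, 1975 and 3933.5 lay nearer to those of the G2 and mitosis cells. Of 4319 genes tested, 367 were higher in G2 and mitosis cells (8.5%) and 388 lower (8.98%) in edgeR. DESeq2 called 150 higher and 86 lower, so that 63.6% of its calls were higher, against 48.6% in edgeR. Without the block the counts were 215 and 168, and on thinned cells 107 and 95. The lower genes numbered 236 without mouse 1 and 211 without mouse 4. This comparison uses the same G2 and mitosis cells as the first, so the results are not independent.

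Ccnb2 stood at 0.944, 0.429, 0.567 and 0.366 UMIs per 10000 in S-phase cells, so the difference was 2.98 ± 0.17, while Mki67 at 3.01, 2.57, 2.11 and 2.56 differed by 1.24 ± 0.11. Top2a at 6.68, 7.20, 6.16 and 7.05 in S-phase cells overlapped with the G2 and mitosis cells, differed by 0.37 ± 0.09, and lost its call in 5 of 16 alternatives. A UMI of Top2a was found in 66.3% of S-phase cells and 67.6% of G2 and mitosis cells. Whether a gene's differences in the comparisons differ from each other was not tested.

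The count filter kept 20 of 27 listed genes of entry into mitosis, 34 of 42 of the kinetochore and 27 of 33 of the spindle. A gene could pass that filter on its level in 1 class alone, which raises the shares called. Without the filter 18 of 27, 23 of 42 and 20 of 33 were higher, and 2, 3 and 2 lower. Of the 20 genes of entry into mitosis, 17 were higher and 2 lower. For 17 the mice did not overlap, against 6.21% of all genes higher and 7.59% lower without overlap. Lower were Mybl2, the B-Myb factor that joins the MuvB complex, by 1.94 ± 0.39, and Arpp19, an inhibitor of the phosphatase PP2A, by 0.39 ± 0.12. Arpp19 lost its call in 8 of 16 alternatives, including without mouse 1 (-0.36) or mouse 2 (-0.33). Kinetochore genes were higher in 23 of 34 and lower in 2, Cenph by 1.29 ± 0.21 and Cenpu by 0.99 ± 0.26. Spindle genes were higher in 19 of 27, with Kif2c at 3.46 ± 0.27, and lower in Haus5 (-0.92 ± 0.31) and the gamma tubulin gene Tubg1 (-0.66 ± 0.18). Haus5 lost its call in 7 of 11 alternatives, including without mouse 1 (-0.97) or mouse 4 (-0.47), and Tubg1 in 5 of 16, including without mouse 4 (-0.55). Cytokinesis genes were higher in 9 of 12, with Cep55 at 2.55 ± 0.36. Condensin and cohesin genes were higher in 6 and lower in 2 of 19, or lower in 1 without mouse 1, mouse 3 or mouse 4, and Rad21 was higher by 1.47 ± 0.15. 

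G1 to S regulators were lower in 8 and higher in 3 of 14. Without mouse 4, 4 were lower and 1 higher of 12, and DESeq2 called 4 lower and 1 higher. Ccne2 stood at 0.147, 0.0764, 0.116 and 0.0258 UMIs per 10000 against 0.944, 1.05, 0.729 and 0.671 (-3.20 ± 0.38), and Ccne1 was lower by 2.87 ± 0.47. Cdkn2d was higher by 1.34 ± 0.21. Of 69 listed clustered histone genes, whose transcripts build up in S phase, only 8 passed the count filter. The whole list summed to 8.66 UMIs per 10000 in G2 and mitosis cells and 14.6 in S-phase cells, so the calls cover few of these genes. Of the 8 tested, 4 were lower and Hist3h2a was higher by 0.72 ± 0.26 in 3 of 4 mice. The call of Hist3h2a was lost in 10 of 14 alternatives, including without mouse 1 (0.69), mouse 2 (0.78) or mouse 4 (0.46). Hist1h1b was lower by 1.61 ± 0.16 and Hist1h2ap by 1.69 ± 0.28. Against the other cells 1 of 12, Hist1h1b, was lower, a call lost in 9 of 16 alternatives, while with the top 20% of cells chosen 8 were higher and the median was 0.61. Outside the lists, Pif1 (5.03 ± 0.52), Gas2l3 (4.40 ± 0.31) and Cep89 (3.82 ± 0.34) were highest, and Tcf19 was lower by 2.81 ± 0.31. The 44 S-phase genes chose the comparator, so their levels there are no result.

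Ribosomal protein genes, by contrast, were 5 higher and 4 lower of 80 with a median of 0.00. Without mouse 1 they were 2 and 1, without mouse 2 they were 3 and 1, without mouse 3 there was 1 lower, and without mouse 4 none was higher and 1 lower. In DESeq2 none passed, and of 12 mitochondrial transcripts none passed in edgeR or DESeq2, with 1 at an unadjusted p under 0.05 and a median of 0.05. Pax6 was higher by 0.69 ± 0.14 and Sox11 by 0.47 ± 0.09, as against other cells, and Spop by 0.71 ± 0.16, the last lost in 3 of 16 alternatives. Gli1 differed by -0.76 ± 0.32 (edgeR adjusted p = 0.089) and Ptch1 by -0.27 ± 0.13. Cd81 was lower by 0.56 ± 0.09 and Cd9 higher by 0.38 ± 0.09. Tubb4b was higher by 1.75 ± 0.09, while Tuba1b and Tubb5 were lower by 0.22 and 0.15. Tuba1b lost its call in 6 of 16 alternatives, including without mouse 1 (-0.13), and Tubb5 in 13, including without mouse 1 (-0.11), mouse 2 (-0.15) or mouse 3 (-0.15). Of 17 ESCRT genes Vps36 again was the only one to pass, at 0.98 ± 0.18.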

How the data were processed

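Single-cell transcriptomes of 4 tumours were measured with 10x Chromium 3′ libraries. The authors deposited 1 table of raw UMI counts per mouse, genes by cell barcodes, and all values are whole numbers. Per the submitters' processing notes, Cell Ranger 2.0.2, Seurat and mm10 were used; their roles are not given in the sources used here. For each class, counts of its cells were added up within a mouse. The quasi-likelihood test of edgeR 4.0.16 (in R 4.3.3, with TMM and filterByExpr) took the mouse as a blocking term because each animal gave both classes, with Benjamini-Hochberg adjustment over all genes tested, at a threshold of 0.05. Deviations of the classes of a mouse from the class means correlated by 0.204 to 0.428 against other cells and 0.174 to 0.367 against S-phase cells. Standard errors were worked back from the F statistic. The 9 rule genes stayed in the fit and are described only, as are the 44 S-phase genes in the comparison with S-phase cells. Per-cell measures and shares were tested with an exact 2-sided sign-flip permutation test over mice. The mice are separate animals of 1 litter.

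The text names fixed anchors, up to 3 genes at each end of every list among those past the threshold in 4 of 4 mice with at least 20 UMIs, and up to 10 at each end outside the lists; other genes named were chosen after their values were seen. The cells, the gene lists and the promoter genes were chosen with earlier results of these data known. Motifs were counted in promoters from RefSeq (GRCm38.p6). The fit was tested on simulated data with no differences between mice and 1 fixed dispersion for all genes. Changes were placed only in genes with at least 20 UMIs. Against other cells, genes changed by 1 log2 unit were recovered in 62.5% of cases and those changed by 2 in 94.8%, over 6917 genes. Of the calls there, 3.82% were false. Against S-phase cells the figures were 73.9% and 100% over 4095 genes, with 4.52% false. The real data differ from that setting, so these figures do not give their recovery or false calls. Alternatives were DESeq2 1.42.0, other size factors, no count filter, no block, each mouse left out, thinning, other depth, mitochondrial and exclusion limits, and other shares of cells. Limits from a count of 0 cover counting error only, while SDs and standard errors are over mice. No doublet caller was run. The listed symbols Chmp1b, Vps28, Haspin and Cenpx were not matched and were not used here.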

Additional observations from a re-analysis of the deposited data

Results flagged for a closer look

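In 31 of 447 groups of 4 mice, taken over per-cell measures and the genes named in the report, 1 mouse lay apart from the others by Dixon's 95% criterion; chance flags about 1 in 20 groups. All values are UMIs per 10000 of the mouse that lay apart.

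In G2 and mitosis cells these were choroid plexus and ependymal markers at 0.106, Kif2c at 1.22, Pcna at 1.10, Cdkn1b at 1.86, Ier2 at 2.03, Psrc1 at 2.18 and Hist1h2ap at 0.147. The others in this class were Bbc3 at 0.229, Haus1 at 0.870, Hist3h2a at 0.116, Id2 at 5.51 and Tubb5 at 41.1.

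In S-phase cells they were Aurkb at 1.89, Cdc6 at 1.15, Ccne1 at 0.729, E2f1 at 1.62, Ccnd1 at 7.45, Mycn at 2.35, Tubb4b at 5.40, Tubb5 at 48.6 and Tubg1 at 0.972.

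In other cells they were oligodendrocyte markers at 5.04, vascular markers at 0.0997, erythroid markers at 0.0100, Kif20a at 0.0927, Ranbp1 at 10.7, Nasp at 5.52, E2f1 at 0.563, Lin54 at 0.250, Prkaca at 0.278 and Tubb2a at 1.45.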

How the results depend on the processing

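Against other cells, the main counts of 553 higher and 490 lower became 333 and 161 with DESeq2 and 251 and 167 on cells thinned to 1000 UMIs. Without the replicate block, which pairs the classes of a mouse, they became 295 and 104. With no UMI of the exclusion genes allowed, 288 were lower. Leaving out 1 mouse gave 434 to 592 higher and 314 to 460 lower. Against S-phase cells, 367 and 388 became 150 and 86 with DESeq2, 107 and 95 on thinned cells, 215 and 168 without the replicate block, and 230 and 173 for the top 5% of cells. With no UMI of the exclusion genes, 250 were lower, and leaving out 1 mouse gave 247 to 382 higher and 211 to 330 lower. Thinning lowers the counts tested, and the cause of the other changes was not tested.

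Among cells with at least 2000 UMIs, differences per cell in UMIs per 10000 were -15.9 for S-phase genes and -264 for ribosomal protein genes against other cells. Against S-phase cells they were 0.524 for oligodendrocyte markers, -0.0771 for choroid plexus and ependymal markers and 147 for G2 and mitosis genes outside the score. Of the other 185 summary values, the held-out marker counts were labelled as unmoved without a limit being applied. The rest moved by less than 1 SD of the paired differences, or by less than 1.5 times for counts. Of the genes named, Ccnd1 turned to -0.27 without the deepest 10% of cells, an alternative chosen after seeing the data, and Malat1 to -0.13, Hist1h1b to 0.43 and Hist1h2ap to 0.62 with the top 20% of cells. Over all genes and shares named, 383 values lost a call, 23 gained one, 24 moved and 3583 did not. With 1 library per mouse and 61 to 111 chosen cells, small differences in rare transcripts can go undetected. In simulated data without differences between mice, 62.5% of genes changed by 1 log2 unit were recovered against other cells.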
